A study of Mus musculus with 16 samples.

Results

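Among H3K36me3 regions of at least 750 bp, those called in SmoM2 medulloblastomas and in no part of the double knockout list were rare and narrow. The set held 1614 of the 38722 SmoM2 regions that lay on chromosomes 1 to 19 and were at least 750 bp wide (4.17%), and its members were chosen by these calls alone: a region entered it when it shared no base with any H3K36me3 region of the other genotype. Of the 1614, 1443 lay within 10 kb of a region of the other list and are called near, and 171 lay farther away and are called isolated. The remaining 37108 SmoM2 regions of this width shared at least 1 base with the other list and are called shared.

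The 2 lists came from mouse medulloblastomas at postnatal day 13, profiled by chromatin immunoprecipitation and sequencing with antibodies to H3K36me3, H3K27ac and Gli2. One group of tumours overexpressed SmoM2, an activated form of the Hedgehog signal transducer Smoothened. In the other group (Sufu;Spop double knockout, DKO), Sufu and Spop, which both restrain Gli transcription factors, had been deleted. The labels name no promoter or Cre line behind either model and do not say whether libraries came from separate animals. Each list stands for 2 libraries, so no difference between genotypes has a replicate check, the read depth is unknown, and a region that a list lacks may still carry the mark below the caller's limit.

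H3K36me3 is a methyl mark placed by the enzyme Setd2, which travels with elongating RNA polymerase II, so the mark lies over the bodies of transcribed genes and is usually strongest towards their ends. H3K27ac is an acetyl mark of active promoters and enhancers and so tends to lie where H3K36me3 does not. Gli2 is a DNA-binding activator of the Hedgehog pathway, the pathway that drives the growth of cerebellar granule cell progenitors and of this class of tumour. Positions are in build mm9. Genes at these positions were not analysed here, because the gene tables at hand are of another build, so the regions are described by position, width, strength and the other marks around them.

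SmoM2-only regions marked little sequence. Together they covered 1.65 Mb, or 1.38% of the 120 Mb marked by all SmoM2 regions of at least 750 bp. Their median width was 936.5 bp (quartiles 831 and 1109 bp), against 1903 bp (1163 and 3634 bp) for shared regions. Isolated and near regions had the same sort of size, with medians of 943 and 934 bp. The authors' fold enrichment over the caller's background, which is each region's own value and ranks it only within its list, had a median of 3.16 in SmoM2-only and 3.59 in shared regions. The median −log10 q, the authors' measure of confidence in a region, was 1.961 and 2.73. The gap was smaller among regions below 1500 bp. There the median fold was 3.16 in SmoM2-only and 3.37 in shared regions, and the median −log10 q 1.95 and 2.33. Width and the absence of overlap chose these regions, so the values describe them and are not tested.

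The share of SmoM2-only regions fell steeply with width. It was 13.8% (994 of 7209) among regions from 750 to below 1000 bp, 5.94% (514 of 8659) from 1000 to below 1500 bp and 1.62% (83 of 5131) from 1500 to below 2000 bp. Among the 6197 regions of 5000 bp or more, a single one was SmoM2-only, and it was isolated. The share also fell with confidence. It was 22.3% (27 of 121) of regions with −log10 q between 1 and 1.5, 15.7% of those between 1.5 and 2, and 0.0567% (2 of 3525) of those at 4 or above. Below the width limit, 41.6% of the 48817 narrower SmoM2 regions shared no base with the DKO list. The limit itself marked no step. The 51 unshared regions of 750 to 759 bp had a median fold of 3.14 and the 56 of 740 to 749 bp one of 3.11. The 5 regions just inside the limit, 750 or 751 bp wide, had folds between 2.96 and 3.24, and the 5 just outside, all 1 bp narrower than the limit, between 2.86 and 3.46.

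With the lists exchanged, 3873 of 37025 DKO regions (10.5%) were DKO-only. Their median width was 1046 bp, and 12.6% of them (487) were isolated, against 10.6% (Wilson 95% interval 9.19–12.2%) of SmoM2-only regions. SmoM2-only regions were thus the smaller of the 2 sets, with similar numbers of regions from 750 bp in both lists. Over all widths and chromosomes the SmoM2 list held more regions (89482 and 67064), and over chromosomes 1 to 19 it covered less sequence (136893 and 162592 kb). On single chromosomes the SmoM2-only share ran from 2.83% on chromosome 16 to 5.57% on chromosome 12, while the DKO-only share ran from 8.81% to 12.7%, so the ranges did not overlap.

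**Figure D1:**
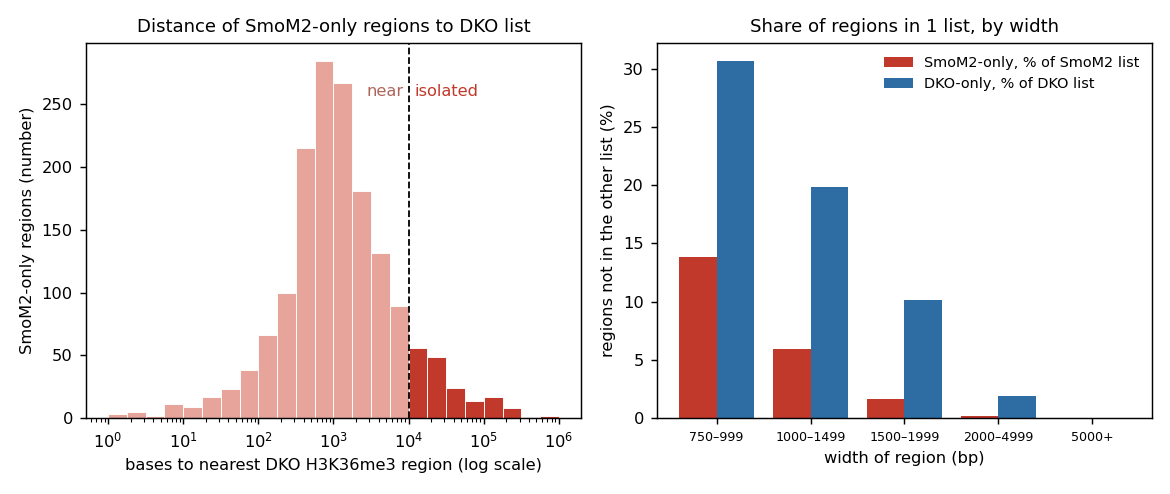
Left, number of SmoM2-only H3K36me3 regions by distance in bases to the nearest DKO region (log scale, with the region directly next to one drawn at 1 base), with the dashed line at 10 kb between near and isolated regions. Right, percent of regions of each width class (bp) that shared no base with the other list, in red for the SmoM2 and blue for the DKO list, falling from 13.8% and 30.7% in the narrowest class to 0.0161% and 0.0475% in the widest.

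Most SmoM2-only regions lay beside or between DKO regions. The median distance to the nearest DKO region was 886 bp for near regions (quartiles 432 and 2010 bp), and 774 of all 1614 (48.0%) lay within 1 kb. The limit of no shared base again marked no step, since 67 SmoM2-only regions lay within 50 bases of a DKO region and 100 shared regions had at most 50 bases in common with one. The median shared region had 98.6% of its width in DKO regions. Of the near regions, 948 (65.7%) had a DKO region within 10 kb on both sides and so lay in a gap of the DKO marking. The gap had a median length of 4.40 kb, and the SmoM2-only region filled a median of 22.2% of it. The other 495 near regions had a DKO region within 10 kb on 1 side only. The next DKO region on their other side could lie just beyond that limit. When DKO regions at most 10 kb apart were joined, 833 SmoM2-only regions (51.6%) fell inside a joined region, and 99 (6.13%) did so when the joined gap was at most 2 kb.

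Isolated regions stood apart from the DKO list, and most had other SmoM2 marking nearby. Their distance to DKO marking had a median of 26.1 kb and reached 921.5 kb, and 28 of the 171 lay more than 100 kb away. The nearest values to the 10 kb limit were 9985 bp for a near region and 10180 bp for an isolated one. Another SmoM2 region of any width lay within 10 kb of 101 isolated regions (59.1%), compared with 97.6% of near and 98.4% of shared regions. The region farthest from DKO marking, on chromosome 5 at 13599141–13599933 (793 bp, fold 3.14), lay 177 kb from SmoM2 and 382 kb from DKO acetylation.

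The widest isolated region also belonged to the cluster with the most marked sequence. It lay on chromosome 11 at 95826471–95832053, was 5583 bp wide and had a fold of 3.55. A second of 2369 bp (95833338–95835706, fold 3.25) and another of 966 bp followed on its right. The 3 together marked 8.92 kb, with no DKO H3K36me3 for 188 kb on the left and 59.8 kb on the right. The nearest H3K27ac region lay 14.5 kb from this cluster in SmoM2 tumours and 87.8 kb away in DKO tumours. The nearest Gli2 peak of either genotype lay 390 kb away.

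Other wide isolated regions differed in the acetylation around them. On chromosome 2 at 52328764–52331083 (2320 bp, fold 3.22), the nearest H3K27ac was 24.1 kb away in SmoM2 tumours and 48.4 kb away in the double knockout. On chromosome 7 at 105398190–105400212 (2023 bp, fold 3.28), it was 12.96 and 57.5 kb away. On chromosome 3 at 97593334–97595293 (1960 bp, fold 3.56) the order was the opposite, with acetylation 21.0 kb from the region in SmoM2 tumours and 9.22 kb from it in the double knockout. On chromosome 7 at 3394508–3396971 (2464 bp, fold 3.59) both were about as far (61.0 and 60.6 kb), and likewise on chromosome 12 at 114147058–114149491 (2434 bp, fold 3.08; 38.7 and 38.9 kb). The 10 with the highest fold were other, narrower regions, led by chromosome 16 at 37134200–37135138 (939 bp, fold 3.93), chromosome 10 at 41772594–41774061 (1468 bp, 3.89) and chromosome 3 at 19559241–19560000 (760 bp, 3.85). At the chromosome 3 region, H3K27ac lay 14.5 kb away in SmoM2 and 235 kb away in DKO tumours. None of these 20 regions had a Gli2 peak within 10 kb, and few SmoM2 regions of this width did (0.307% for SmoM2 and 1.94% for DKO Gli2).

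Few isolated regions formed clusters. Of the 171, 142 stood alone when regions at most 10 kb apart were joined, and the other 29 formed 8 pairs, 3 groups of 3 and 1 group of 4. The group of 4 lay on chromosome 11 at 11833460–11854662, and within 100 kb of its middle the SmoM2 list held 10 H3K36me3 regions (5.14 kb) and the DKO list none, while H3K27ac covered 0.608 kb in the SmoM2 and 2.49 kb in the DKO list. The group of 3 on chromosome 4 at 128142009–128155699 lay in a long run of short SmoM2 regions. Within 100 kb of its middle the SmoM2 list held 53 H3K36me3 regions covering 31.0 kb and the DKO list 11 covering 4.36 kb, while H3K27ac covered nearly the same length (0.734 and 0.732 kb). The last group of 3, on chromosome 11 at 94583410–94590070, lay 13.7 kb beyond the last DKO region on its left and 267 kb from the next on its right. Within 100 kb of its middle the SmoM2 list covered 49.5 kb, the group's own 3.31 kb included, and the DKO list 47.8 kb, and the nearest SmoM2 and DKO acetylation was 2.70 and 3.08 kb away.

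**Figure D2:**
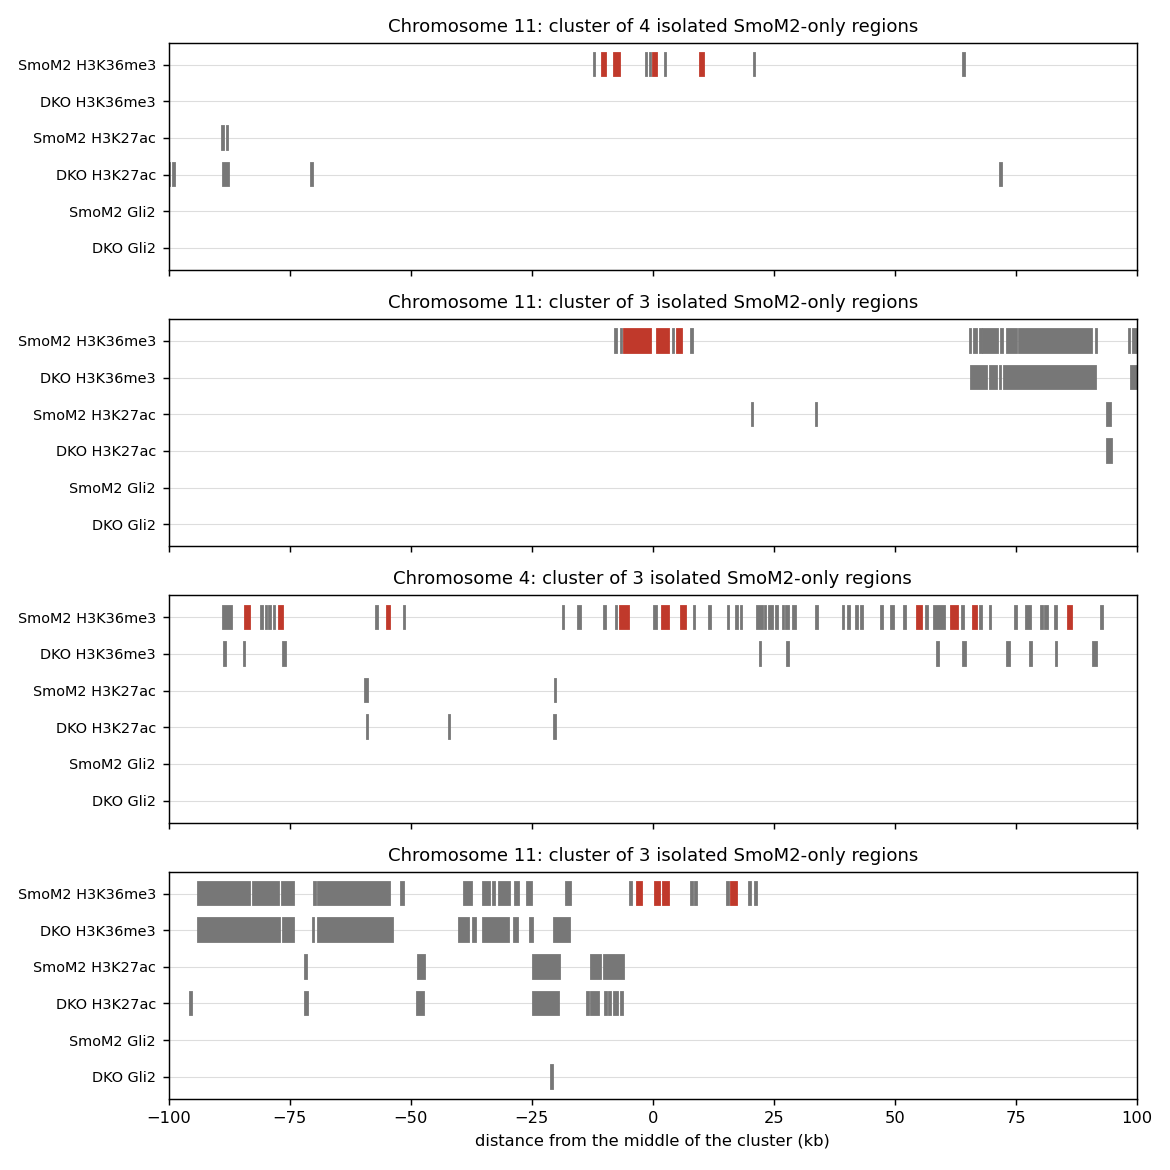
Regions of all 6 lists within 100 kb of the middle of the 4 largest clusters of isolated regions, with distance in kb on the horizontal axis and 1 list per row. SmoM2-only H3K36me3 regions of at least 750 bp are red and all other regions grey, and the row of DKO H3K36me3 is empty in the top panel, where the SmoM2 list holds 10 regions.

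The widest near regions were smaller than the widest isolated one. The widest, on chromosome 19 at 46527720–46531033 (3314 bp, fold 3.65), lay 2.10 kb from a DKO region and touched H3K27ac in both genotypes. The next lay on chromosome 15 at 44474673–44477868 (3196 bp, fold 3.02), between DKO regions 2.55 and 0.850 kb away, with acetylation more than 23 kb away in both genotypes. A region on chromosome 7 at 149673951–149676935 (2985 bp, fold 3.45) lay 9 bases from DKO acetylation (0.009 kb) and 6.23 kb from SmoM2 acetylation. One on chromosome 2 at 24537101–24539945 (2845 bp, fold 3.05) lay 4.78 kb from a SmoM2 Gli2 peak and 710.5 kb from a DKO one.

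To ask whether the acetyl mark also differed around these regions, they were set against the H3K27ac lists, which the choice of regions did not use. SmoM2-only regions seldom touched an acetylated region. In SmoM2 tumours 33 did (2.04%, 1.46–2.86%), against 3.07% of all SmoM2 regions of this width and 3.11% of shared ones, a difference of −1.07 percentage points (Newcombe 95% interval −1.68 to −0.23). Among regions from 750 to below 1000 bp the shares were 2.01% and 1.83% (difference 0.178 points, −0.617 to 1.296), and from 1000 to below 1500 bp 2.14% and 1.80% (0.335 points, −0.656 to 2.01), so no difference was detectable at matched width below 1500 bp, where most SmoM2-only regions lay. For H3K27ac of DKO tumours the shares were 2.35% of SmoM2-only regions and 4.80% of shared ones, with 4.7% over all (−2.45 points, −3.12 to −1.56), and within each width class the interval included 0. Of the 171 isolated regions, 1 touched SmoM2 acetylation (0.585%, 0.103–3.24%), against 3.07% of all SmoM2 regions of this width. DKO acetylation was touched by 2 (1.17%, 0.321–4.16%), against 4.70% of all. Isolated regions were not compared at matched width, and the counts are small. The regions lay on chromosome 4 at 59732741–59733520, in DKO tumours alone, and on chromosome 7 at 28210809–28212022, in both genotypes. They are named for that reason, after their values were seen.

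At a distance of 10 kb, any SmoM2 acetylation was found near 470 SmoM2-only regions (29.1%), against 33.8% of all SmoM2 regions of this width, and any DKO acetylation near 553 (34.3%), against 41.2% of all. Both shares were lower than at shared regions, by −4.86 points (−7.08 to −2.55) and −7.29 points (−9.62 to −4.88). The deficit was not particular to SmoM2-only regions. DKO-only regions differed from shared DKO regions by −6.67 points (−8.17 to −5.12) for SmoM2 and −5.82 points (−7.43 to −4.19) for DKO acetylation. These differences were not compared at matched width. Median distances to the nearest acetylation of SmoM2 and DKO tumours were 25.7 and 23.3 kb for isolated, 22.9 and 18.4 kb for near and 18.6 and 13.7 kb for shared regions.

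Acetylation called in SmoM2 tumours alone lay near SmoM2-only regions more often than near shared ones. Within 10 kb, 72 of the 1614 (4.46%, 3.56–5.58%) had a SmoM2 H3K27ac region and no DKO one, compared with 2.75% (2.59–2.92%) of shared regions and 2.82% of all. The difference was 1.71 points (0.79–2.84). It was 1.61 points for near regions (63 of 1443; 0.66–2.81) and 2.51 points for isolated regions (9 of 171; 0.04–6.95), and isolated and near regions did not differ detectably (0.90 points, −1.84 to 5.43). At matched width it was 1.90 points (0.71–3.41) below 1000 bp and 1.69 points (0.16–3.86) from 1000 to below 1500 bp. The share was higher at SmoM2-only than at shared regions on 15 of the 19 chromosomes. Each chromosome held only 1 to 9 such SmoM2-only regions, and on chromosome 4 the shares were nearly equal (3.45% and 3.43%). Chromosomes of the same pooled lists are not replicates. The 72 regions were spread over 62 stretches of 1 Mb, so few shared an acetylated region.

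Acetylation called in DKO tumours alone was about as frequent near SmoM2-only as near shared regions. It lay within 10 kb of 155 SmoM2-only regions (9.60%, 8.26–11.1%), against 10.3% of shared regions and 10.3% of all (difference −0.72 points, −2.09 to 0.85). Near DKO-only regions, 11.8% had DKO acetylation alone, 1.10 points (0.07–2.21) above shared DKO regions, and 2.92% had SmoM2 acetylation alone (0.25 points above, −0.26 to 0.86). Set directly against each other, SmoM2-only regions had SmoM2 acetylation alone 1.54 points more often than DKO-only regions (0.47–2.76) and DKO acetylation alone 2.20 points less often (−3.90 to −0.38). Most SmoM2-only regions had neither, since 989 (61.3%) had no H3K27ac within 10 kb in either genotype, against 55.7% of shared regions and 55.9% of all. Among DKO-only regions that share was 58.7%, against 53.2% of shared DKO regions. The intervals treat regions as independent, cover counting error only and are not adjusted for the 90 differences computed over 15 features and 6 pairs of sets. With H3K27ac counted within 2 kb in place of 10 kb, the excess of SmoM2 acetylation alone was gone (−0.04 points for all SmoM2-only and −0.61 points for isolated regions). For the 9 isolated regions the interval also included 0 when only SmoM2 H3K36me3 regions with −log10 q of at least 2 (3.53 points) or a fold of at least 3 (2.78 points) were kept.

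**Figure D3:**
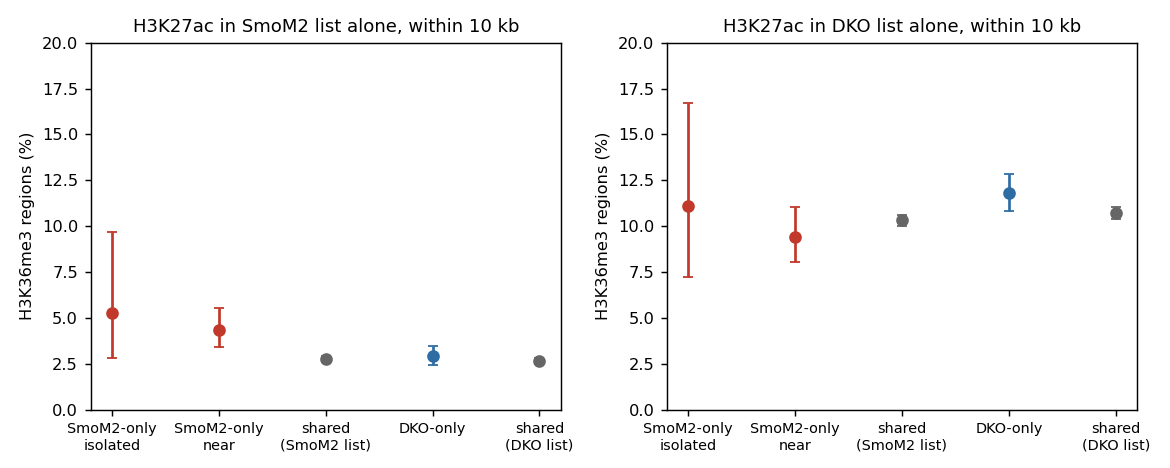
Percent of H3K36me3 regions with H3K27ac within 10 kb in the SmoM2 list alone (left) and in the DKO list alone (right), for isolated and near SmoM2-only regions, shared regions of the SmoM2 list, DKO-only regions and shared regions of the DKO list. Points are shares and bars Wilson 95% intervals, and on the left the near SmoM2-only regions (4.37%) lie above the shared ones (2.75%).

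The 9 isolated regions with SmoM2 acetylation alone included chromosome 12 at 99764662–99765771, where it lay 0.619 kb away and the nearest DKO acetylation 44.4 kb away. On chromosome 2 at 181453638–181454489 the distances were 1.12 and 24.5 kb, and on chromosome 5 at 109101119–109102134 they were 2.55 and 21.4 kb. The region on chromosome 6 at 54170244–54171114 lay 290 kb from any DKO H3K36me3, with acetylation 4.27 kb away in SmoM2 and 99.4 kb away in DKO tumours. At the region on chromosome 9 at 68512463–68513371 the 2 distances were 9.32 and 10.4 kb, so there the call rests on the 10 kb limit.

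The acetylated length around isolated regions did not follow the ratio of the lists. Over chromosomes 1 to 19 the DKO list covered 1.33 times the length of the SmoM2 list. Within 10 kb of shared regions the ratio was 1.34 (11919 and 8878 kb), within 10 kb of near regions 1.16 (681 and 586 kb) and within 10 kb of isolated regions 0.927 (52.7 and 56.8 kb). Within 50 kb of isolated regions it was 0.945 (263 and 278 kb). By number of acetylated regions the order within 10 kb was another. Around isolated regions lay 76 DKO and 53 SmoM2 regions, a ratio of 1.43 against 1.37 over all. Their mean fold was 4.07 and 3.96. Within 50 kb of isolated regions the numbers were 324 and 263, a ratio of 1.23 and so below that over all. The lower length ratio therefore came with fewer but wider SmoM2 regions, and with H3K27ac regions of −log10 q of at least 2 it was 1.02. No replicate supports these ratios and they were not tested.

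Gli2 peaks were too few near SmoM2-only regions to show a difference. Over all SmoM2 regions of at least 750 bp, 7 of 38722 (0.0181%) touched a SmoM2 and 26 (0.0671%) a DKO Gli2 peak. No SmoM2-only region touched a Gli2 peak of either list (0 of 1614). That count allows a share of up to 0.186% by the limit of 3 counts and 0.237% by the Wilson interval, both above the shares over all. No isolated region lay within 10 kb of a SmoM2 Gli2 peak (0 of 171). That count allows a share of up to 2.20% by the Wilson interval, above the 0.307% over all, so it shows no contrast with near regions. Within 10 kb of such a peak lay 8 SmoM2-only regions (0.496%, difference from shared regions 0.20 points, −0.06 to 0.68), all near. They included chromosome 3 at 33700477–33701409, which lay 1.26 kb from a SmoM2 Gli2 peak and 0.832 and 1.00 kb from SmoM2 and DKO acetylation, and chromosome 10 at 60686910–60688160, with Gli2 peaks of SmoM2 and DKO tumours 1.44 and 1.31 kb away. DKO Gli2 peaks lay within 10 kb of 30 SmoM2-only regions (1.86%, against 1.94% of all). The 2 isolated ones among them, named after their values were seen, lay on chromosome 8 at 108858281–108859259 and on chromosome 9 at 112105356–112106236, 7.45 and 4.10 kb from the peak.

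SmoM2-only regions were spread over 866 of the 1769 stretches of 1 Mb that held a SmoM2 region of at least 750 bp, with 1 region in 481 of them and at most 11. The 38 stretches with 5 or more held 233 regions. Each of 2 stretches held 11. Chromosome 4 from 128000001 had 4 isolated among its 11, and chromosome 11 from 118000001 had 1. Chromosome 12 at 41000001–42000000 held 8 near regions, which followed each other between 41361718 and 41546629 and made up 34.8% of its 23 regions. Their folds ran from 2.94 to 3.74, and 4 of them had DKO acetylation as the nearer and 4 SmoM2 acetylation. On chromosome 7 at 66000001–67000000 the SmoM2-only regions made up 50% (7 of 14), and H3K36me3 covered 39.0 kb in the SmoM2 and 15.6 kb in the DKO list. On chromosome 9 at 112000001–113000000 there were 8 of 22, with 39.5 and 18.9 kb covered. Chromosome 10 at 5000001–6000000 held the most isolated regions, 6 of its 7, between 5030478 and 5144853 with folds from 2.86 to 3.42, and its acetylated length was nearly equal (4.01 kb in the SmoM2 and 4.16 kb in the DKO list).

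Stretches rich in SmoM2-only regions more often had more acetylation in SmoM2 tumours. H3K27ac covered more in SmoM2 than in DKO tumours in 13 of the 38 stretches with 5 or more (34.2%, 21.2–50.1%), against 281 of the other 1731 (16.2%), a difference of 17.98 points (4.85–33.96). The share was 15.9% without any SmoM2-only region, 16.01% with 1, 16.7% with 2 and 18.1% (12.8–24.9%) with 3 or 4. The richest class was not tested against the class with 3 or 4 alone, and their intervals overlap. This comparison and its cut at 5 were not planned at the start. It lies outside the 90 differences counted above and was not repeated under other settings. The 38 stretches were also more densely marked, with a median of 15.4 kb of SmoM2 acetylation against 6.23 kb over all stretches. The part of density in the difference was not tested. In acetylated length the DKO-over-SmoM2 ratio was 1.10 in these 38 stretches and 1.37 in those without a SmoM2-only region. The mark by which the regions were chosen covered more in SmoM2 tumours in 12 of the 38 (31.6%), against 8.08% of all stretches, which is given as a description.

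**Figure D4:**
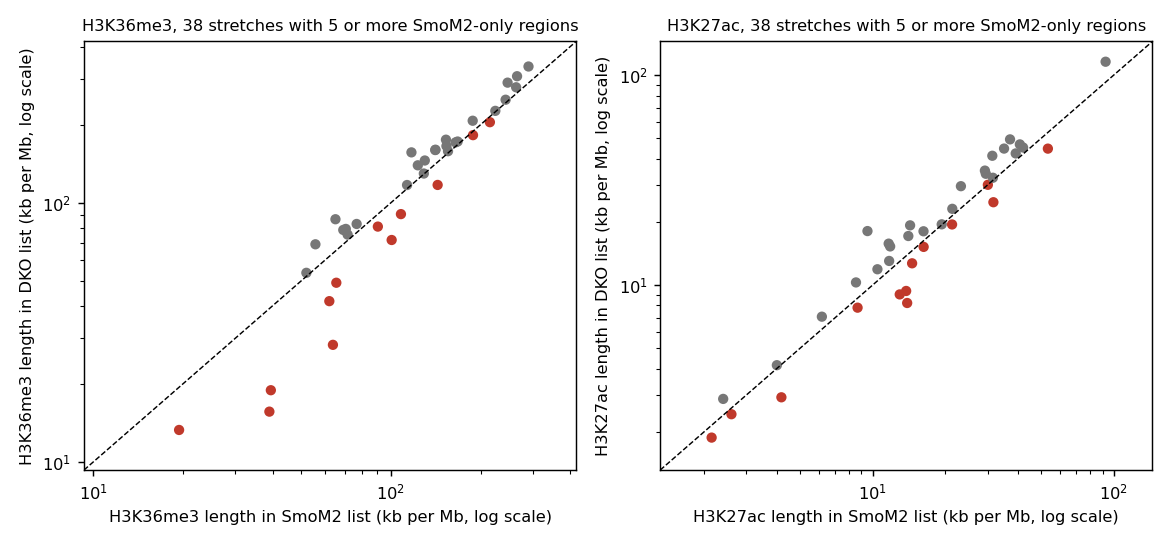
Length covered per stretch of 1 Mb in the DKO list (vertical) against the SmoM2 list (horizontal), both in kb on log scales, for H3K36me3 (left) and H3K27ac (right) in the 38 stretches with 5 or more SmoM2-only regions. Each point is a stretch, red where the SmoM2 list covers more (12 on the left, 13 on the right), and the dashed line marks equal lengths.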

How the data were processed

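Each list holds the called regions of 1 antibody and genotype. Build mm9 and the tools Trimmomatic 0.36, BWA, bedtools and MACS2 are named, per the submitters' processing notes, and the labels record no settings, no role of the input libraries and no way in which the 2 libraries of a group were merged. The authors deposited each region's start and end, a fold enrichment (a ratio over the caller's background), a −log10 q and a score equal to 10 times −log10 q up to rounding. The lists state no read numbers.

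From these lists, distances, overlaps of at least 1 base and covered lengths were computed with Python 3.11.15, numpy 2.4.6 and pandas 2.3.3. Shares have Wilson and differences of shares Newcombe 95% intervals. On simulated regions, 200 of 200 planted overlaps of 1 base were found. The regions and comparisons were chosen with earlier results of these data known. Named positions follow a rule: the 10 widest and 10 highest-fold isolated regions, the 10 largest clusters and the 5 widest near regions, of which some are given in full. The regions with H3K27ac in SmoM2 tumours alone, with Gli2 peaks nearby or farthest from DKO marking, and the stretches, were picked after their values were seen. Alternatives changed width, overlap, confidence, joining, chromosomes and distances. Input libraries have no list and were not used.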

Additional observations from a re-analysis of the deposited data

Results flagged for a closer look

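Chromosome X, which the comparisons leave out, held 31 SmoM2-only H3K36me3 regions among its 575 SmoM2 regions of at least 750 bp (5.39%, 3.82–7.55%), and is given as signal on a chromosome outside the rule. None of the 31 was isolated.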

How the results depend on the processing

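The number of SmoM2-only regions was 4445 from 500 bp, 106 from 1500 bp, 840 with no DKO region within 1 kb and 732 with −log10 q of at least 2. The isolated share was 20.4% with no DKO region within 1 kb, 8.74% with −log10 q of at least 2, 16.3% with SmoM2 regions joined at 1 kb and 2.91% beyond 50 kb. For touching SmoM2 H3K27ac, the difference between SmoM2-only and shared regions was −2.04 points from 1500 bp, −1.005 with −log10 q of at least 2 and −0.37 with H3K27ac −log10 q of at least 2, each with an interval that includes 0. It was 0.0509 by midpoint and 0.24 below 1500 bp. SmoM2 acetylation alone at isolated regions gave −2.80 points from 1500 bp and −0.61 within 2 kb. It gave 3.53 with −log10 q of at least 2, 2.78 with a fold of at least 3, 1.07 with joined regions and 3.63 beyond 50 kb, all including 0. At all SmoM2-only regions it gave 1.92 from 1500 bp (including 0) and −0.0438 within 2 kb. For SmoM2 Gli2 the difference was −0.0196 with −log10 q of at least 2. For DKO Gli2 it was 0.29 from 500 bp, 0.0889 with no DKO region within 1 kb, 0.00888 with a fold of at least 3 and 0.0133 within 2 kb. The acetylated ratio around isolated regions was 1.02 with H3K27ac −log10 q of at least 2 and 1.43 by number. The cause of these changes was not tested. Stricter limits also left fewer regions. Of 42 values planned at the start, 23 were classed as unchanged, as were 16 of 25 other values. Most of these 25 came from further comparisons under the same settings, and some from settings added after seeing the data. For differences, unchanged means the same sign and an interval that includes or excludes 0 as before. For the count, the isolated share and the length ratio it means close to the main value. No paired analysis was possible because the 2 libraries of a group are pooled in 1 list, so no replicate could be left out either. Depth is unknown, so what it limits was not assessed.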

Other observations

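DKO-only H3K36me3 regions lay within 10 kb of 212 of the 1443 near SmoM2-only regions (14.7%, 12.96–16.6%) and of 11.8% (11.5–12.2%) of shared regions. Over all 1614 SmoM2-only regions the share was 13.1% (11.6–14.9%), since isolated regions have no DKO region within 10 kb by definition. The sets come from the same 2 lists and near regions are defined by a DKO region within 10 kb, so this is a description. The near regions with a DKO region within 10 kb on both sides had no H3K27ac of either genotype within 10 kb in 64.03% of cases (607 of 948, 60.9–67.0%). Those with a DKO region within 10 kb on 1 side only had none in 54.7% (271 of 495, 50.3–59.1%).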
